A study of Mus musculus with 30 samples.

Results

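The 7 genes of hyaluronan turnover followed here were the synthases Has1, Has2 and Has3, the breakdown genes Cemip, Hyal1 and Hyal2, and the receptor Cd44. They were matched by symbol, were chosen from a list drawn up with earlier results of these comparisons known, and all 7 of 7 were found among the 35972 genes that both RNA tables hold. Of the 16367 sites in 5 chromatin site lists, 15 were annotated to a member. Because the RNA comparisons below had a part in choosing the members, their changes are given as a description, and no p is printed for them.

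The cells were primary fibroblasts from mouse tail tendon, all 30 samples labelled wildtype, grown in serum and then treated in medium with 0.1% serum. For RNA there were 3 groups of 3 libraries: DMSO, the solvent; Blebb, blebbistatin at 10 µM, which blocks the motor activity of non-muscle myosin II; and Y27, Y27632 at 30 µM, which inhibits the kinases ROCK1 and ROCK2. The same 3 treatments were assayed by ATAC-seq, which reads out open chromatin, with 3 libraries each. A further 12 genomic DNA libraries, 3 each of nodox_noblebb, nodox_blebb, dox_noblebb and dox_blebb, crossed doxycycline at 10 ng/mL with blebbistatin at 10 µM. The nodox_noblebb group carries the treatment label DMSO. The labels give neither the assay of those 12 libraries nor what doxycycline induced, nor animal age or treatment time. They also do not say that replicates came from separate cultures or animals, so p-values measure the spread between these libraries, which may be technical. The series title names the control of matrix by mechanical cues through Yap and Taz as the question.

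Hyaluronan is a very long unsulfated sugar chain of the extracellular matrix. Synthases in the plasma membrane build it from nucleotide sugars and push it out of the cell, where proteoglycans and receptors such as Cd44 bind it. Cemip and the hyaluronidases cut it, and lysosomal glycosidases finish its breakdown. In tendon it lies between collagen fascicles and in the sheath, where it lubricates gliding.

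The 2 inhibitors were followed by partly different changes in this pathway. With blebbistatin, Cemip fell to 0.266 of its DMSO level while Hyal1 and Hyal2 rose 1.46-fold and 1.44-fold. Cd44 rose 1.09-fold, a call lost without some single libraries, and no synthase passed the test. With Y27632, Has1 rose 3.34-fold, Has2 1.91-fold and Hyal2 1.18-fold, and Cemip fell to 0.879 of the DMSO level. The fall of Cemip and the rise of Hyal2 were thus called with both inhibitors. Between the inhibitors, Cemip, Has1 and Has2 were lower in Blebb, and Hyal1, Hyal2 and Cd44 were higher. Has3 was the one member not called in any of the 3 comparisons.

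Counts of calls have to be read against a broad response. In Blebb against DMSO 4 of 7 members were called (3 higher, 1 lower) where 53.0% of 14882 genes tested were called, 26.1% higher and 26.9% lower. In Y27 against DMSO 4 of 7 were called (3 higher, 1 lower) against 35.9% of 14833 genes, 18.1% higher and 17.8% lower. In Blebb against Y27 6 of 7 were called (3 higher, 3 lower) against 52.3% of 14925 genes, 25.5% higher and 26.8% lower. The members were chosen from these comparisons, so nothing is read from these counts. Called means an adjusted p under 0.05 in limma on log2(normalised count + 1), with Benjamini-Hochberg adjustment over all genes with a mean of at least 10. All 7 members passed that filter in all 3 comparisons. The share of calls that were higher was 49.2% in Blebb against DMSO and 48.7% in Blebb against Y27, and scaling by total counts moved these to 64.4% and 63.3%. The median log2 change over all genes went from 0.002 to 0.084 and from -0.003 to 0.070 with that scaling. The size of small blebbistatin changes therefore depends on the scaling: in Blebb against DMSO Cd44 went from 0.13 to 0.21 and Ugdh from -0.29 to -0.20. The comparisons with DMSO share their 3 DMSO libraries.

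The libraries held 23375386 to 37061737 reads in genes. Markers fitted the labelled cell type: all 10 of 10 fibroblast and tendon markers were detected. Their summed normalised count was 832368 to 890467 in DMSO, 792432 to 865753 in Blebb and 877029 to 922471 in Y27. Most of that sum was Col1a1 (means of 299598, 251846 and 278392 in DMSO, Blebb and Y27), Col1a2 (248176, 228708 and 253572) and Col3a1 (242672, 248487 and 263544). Pdgfra averaged 9331, 14002 and 14070 in DMSO, Blebb and Y27, and Dcn 59422, 72188 and 73727. Lum averaged 5054, 6912 and 8629, and Fmod 2735, 3256 and 4310, so the markers did not all move the same way. Among the tendon markers, Scx was low at 58.0 to 88.3, while Tnmd had 745 to 1097 and Mkx 966 to 1207. Tnmd averaged 951, 808 and 1054 in DMSO, Blebb and Y27, and Mkx 998, 1096 and 1189. Of 6 leukocyte markers, Cd3e was at 0 in all 9 libraries and Ptprc, Cd68, Adgre1, Csf1r and Itgam were detected. Their sum was 1719 to 1938 in DMSO, 2439 to 2826 in Blebb and 2360 to 2767 in Y27, so both inhibitor groups lay above DMSO. Of 5 endothelial markers, Tek had 3249 to 3298 normalised counts in DMSO, 2002 to 2251 in Blebb and 2880 to 3067 in Y27, while the others were low: Cdh5 averaged 70.5, 87.0 and 88.9 in DMSO, Blebb and Y27, Vwf 47.7, 75.1 and 61.9, Kdr 15.3, 23.4 and 20.2, and Pecam1 had at most 14.5. Of 5 keratinocyte markers Krt1 was at 0 everywhere, Krt5 and Krt14 had at most 1.5 normalised counts, Epcam at most 7.4 and Krt10 49.9 to 78.9. The 3 pericyte markers summed to 2150 to 2391 in DMSO, 2463 to 2757 in Blebb and 2393 to 2958 in Y27, mostly Cspg4, and the 3 Schwann markers to 122 to 146, 162 to 174 and 144 to 174. In bulk RNA, a change in the number of cells of a type and a change in RNA per cell cannot be told apart. The values below are normalised counts after scaling the 9 libraries together, and since they are not divided by transcript length they are compared between libraries, never between genes.

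**Figure D1:**
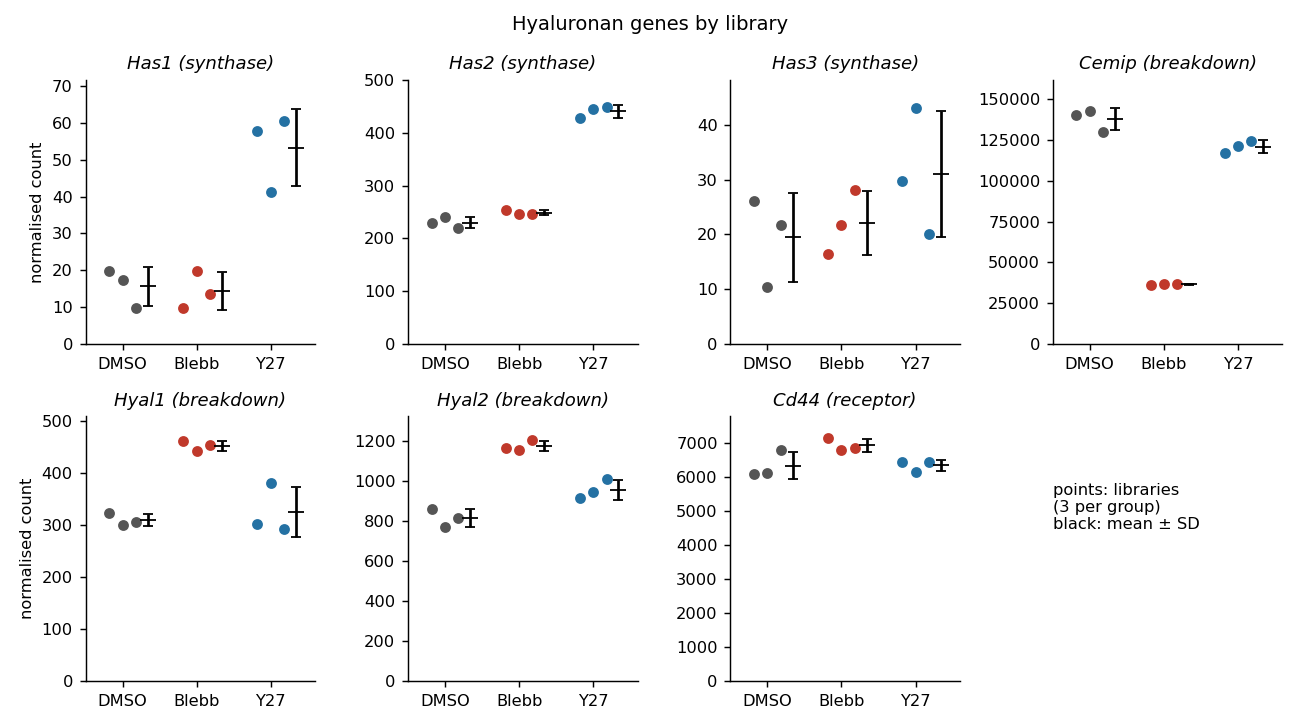
Normalised counts of the 7 genes in each of 9 RNA libraries (points, 3 per group), with the mean ± SD in black; each panel has its own linear axis from 0. Cemip was 36094 to 36971 in Blebb against 129921 to 142394 in DMSO, and Has2 was 427 to 449 in Y27 against 220 to 240 in DMSO.

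Has1, a hyaluronan synthase, lies at chr17:17833691-17855589 (GRCm38). Its promoter, 250 bases before to 50 after the RefSeq start, is shown because it is the one of 5 member promoters searched with a perfect cyclic AMP response element (TGACGTCA, in capitals), 83 bases before the start (GRCm38.p6, chr17:17855139-17855438, minus strand, 5′ to 3′):
Has1: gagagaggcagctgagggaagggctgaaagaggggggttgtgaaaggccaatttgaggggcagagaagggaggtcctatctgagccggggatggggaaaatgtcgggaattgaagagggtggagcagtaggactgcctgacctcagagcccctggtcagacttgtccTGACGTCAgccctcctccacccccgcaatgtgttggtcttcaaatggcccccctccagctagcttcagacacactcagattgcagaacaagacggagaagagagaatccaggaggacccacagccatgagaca
This window lies wholly inside the Has1 interval given above, so the start used is not the outermost one. The TGACGTCA palindrome, the same on both strands, was found in 588 of 32851 RefSeq promoters of this length (1.79%). The motifs searched were picked after the sequences had been seen, and a match describes letters, not binding. No promoter of Has2 or Has3 was among those searched.

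Has1 had 19.9, 17.4 and 9.7 normalised counts in DMSO replicates 1 to 3, 9.9, 19.9 and 13.6 in Blebb, and 57.9, 41.2 and 60.5 in Y27. Every Y27 library lay above all 6 others, and DMSO and Blebb overlapped fully. The reads behind these values were few, 8 to 23 per library in DMSO and Blebb and 46 to 76 in Y27. In Y27 against DMSO the log2 change was 1.74 ± 0.28 (SE, n = 3 per group), with -1.84 ± 0.31 in Blebb against Y27, and -0.10 ± 0.36 in Blebb against DMSO, which was not called. The order of levels was therefore Y27 first, with DMSO and Blebb not separated beyond their spread. Has1 overlaps Spaca6, a sperm membrane protein gene, and the lncRNA Gm36907, and no source used here says whether counting used strand, so shared reads are possible. Spaca6 moved the other way in Y27 against DMSO, with a log2 change of -0.41 (limma, adjusted p = 0.00211), and Gm36907 stood at -0.36 and was not called.

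Has2, at chr15:56665627-56694546, is the main synthase of fibroblasts and of the embryo. It had 229, 240 and 220 normalised counts in DMSO, 254, 246 and 246 in Blebb, and 427, 444 and 449 in Y27. No groups overlapped, but the step from DMSO (229.8 ± 10.0, SD, n = 3) to Blebb (248.7 ± 4.53) was small beside that to Y27 (440.0 ± 11.4). On the log2 scale Has2 changed by 0.94 ± 0.071 in Y27 against DMSO and -0.82 ± 0.069 in Blebb against Y27. In Blebb against DMSO it was 0.11 ± 0.081 and not called, so those neighbours in the order were not told apart by the test. The overlapping lncRNA Has2os had 83 reads over 9 libraries.

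Has3, at chr8:106870242-106882902, makes shorter chains than the other synthases. It had 26.1, 10.4 and 21.8 normalised counts in DMSO, 16.4, 21.7 and 28.1 in Blebb, and 29.7, 43.0 and 20.2 in Y27, from 9 to 48 reads per library. All 3 groups overlapped. Log2 changes were 0.67 ± 0.35 in Y27 against DMSO, 0.23 ± 0.35 in Blebb against DMSO and -0.44 ± 0.35 in Blebb against Y27. At this depth a change of that size was not detectable against the spread between libraries.

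Cemip, at chr7:83932857-84086693, encodes a secreted protein required for hyaluronan depolymerisation in skin fibroblasts. Its promoter is shown because Cemip changed most among the members in Blebb against DMSO, and the capitals mark a TATA box (TATAAA) whose first base lies 29 bases before the start (GRCm38.p6, chr7:84086456-84086755, minus strand):
Cemip: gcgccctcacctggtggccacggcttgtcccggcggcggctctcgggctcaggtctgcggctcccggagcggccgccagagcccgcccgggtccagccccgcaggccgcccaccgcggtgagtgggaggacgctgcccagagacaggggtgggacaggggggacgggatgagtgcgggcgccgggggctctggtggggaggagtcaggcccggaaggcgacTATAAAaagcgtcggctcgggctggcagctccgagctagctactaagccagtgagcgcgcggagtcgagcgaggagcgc
TATAAA was found anywhere in the window, on either strand, in 4473 of 32851 promoters (13.6%). The share with it at the place seen in Cemip was not counted. Cemip was the one of 5 member promoters searched that held it. AP-1 sites (TGANTCA) and CArG boxes were in none of the 5, against 7.81% and 1.63% of all promoters. That says only that these letters are not in these windows. The start used for Cemip lies inside the interval given above and is not the outermost one.

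Cemip had 140392, 142394 and 129921 normalised counts in DMSO, 36094, 36971 and 36777 in Blebb, and 116813, 121006 and 124434 in Y27. The 3 groups did not overlap, in the order DMSO, Y27, Blebb. The Blebb libraries were close together (36614 ± 461, SD, n = 3) against 137569 ± 6699 in DMSO. The log2 change was -1.91 ± 0.038 in Blebb against DMSO, larger in size than that of 98.7% of genes tested, and -0.19 ± 0.041 in Y27 against DMSO. Between the inhibitors it was -1.72 ± 0.037. Cemip took 0.459% to 0.497% of all reads in genes in DMSO, 0.414% to 0.434% in Y27 and 0.134% to 0.137% in Blebb. A share of reads also depends on transcript length, so it does not rank Cemip among genes. The overlapping lncRNA Gm30440 had 109 reads over 9 libraries.

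Hyal2 is the hyaluronidase anchored at the cell surface, and Hyal1 the lysosomal one that follows it. They are neighbours at chr9:107567873-107572778 and chr9:107576950-107581699. The Hyal2 promoter is shown because it is the one of 5 member promoters that holds the core motif of TEAD factors, the DNA-binding partners of Yap and Taz (GGAATG, here as its reverse complement CATTCC in capitals, 229 bases before the start, chr9:107568913-107569212, plus strand):
Hyal2: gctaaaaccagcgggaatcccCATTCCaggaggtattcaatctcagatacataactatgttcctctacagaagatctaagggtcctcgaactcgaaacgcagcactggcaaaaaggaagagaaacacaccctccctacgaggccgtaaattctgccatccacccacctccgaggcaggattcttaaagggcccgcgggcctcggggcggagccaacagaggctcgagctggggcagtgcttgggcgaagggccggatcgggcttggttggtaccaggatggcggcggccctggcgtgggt
The core was in 4817 of 32851 promoters on either strand (14.7%), so it is a common sequence. This window lies wholly inside the Hyal2 interval given above, so the start used is not the outermost one.

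Hyal1 had 322, 301 and 306 normalised counts in DMSO, 461, 442 and 453 in Blebb, and 301, 380 and 292 in Y27. Every Blebb library lay above all 6 others, and Y27 spanned the DMSO range, with its replicate 2 above it. The log2 change was 0.54 ± 0.067 in Blebb against DMSO, 0.49 ± 0.089 in Blebb against Y27, and 0.06 ± 0.096 in Y27 against DMSO, which was not called. Hyal1 overlaps Hyal3, another hyaluronidase gene that had 253 reads over 9 libraries. It also overlaps Naa80, which was not found under that symbol among the genes counted. Reads in the shared stretches are therefore uncertain.

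Hyal2 had 858, 767 and 813 normalised counts in DMSO, 1162, 1155 and 1201 in Blebb, and 912, 944 and 1008 in Y27. The groups did not overlap, in the order Blebb, Y27, DMSO. Hyal2 had a log2 change of 0.53 ± 0.052 in Blebb against DMSO, 0.23 ± 0.056 in Y27 against DMSO and 0.30 ± 0.052 in Blebb against Y27. Hyal1 and Hyal2 thus moved by nearly equal amounts with blebbistatin, whereas with Y27632 Hyal2 alone passed the test. The difference between the genes' responses was not tested. Leukocytes express hyaluronidases too, and the part of the leukocyte marker sums, higher in both inhibitor groups, was not tested. Tusc2, the gene on the other side of Hyal2, stood at 0.12 in Blebb against DMSO and was not called, and rose by 0.22 in Y27 against DMSO (limma, adjusted p = 0.0461).

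Cd44, at chr2:102811141-102901669, is the main hyaluronan receptor of mesenchymal and blood cells. It had 6087, 6109 and 6793 normalised counts in DMSO, 7145, 6782 and 6863 in Blebb, and 6444, 6154 and 6437 in Y27. DMSO replicate 3 lay inside the Blebb range, so those groups overlapped, while Blebb lay above Y27 in every library. The log2 change was 0.13 ± 0.043 in Blebb against DMSO and 0.13 ± 0.041 in Blebb against Y27, both called, and 0.01 ± 0.042 in Y27 against DMSO. The first call was lost without DMSO replicate 1 (0.10), without DMSO replicate 2 (0.11) or without Blebb replicate 1 (0.11), and the second without Blebb replicate 1 (0.10) or Y27 replicate 2 (0.11). Leukocytes also express Cd44, and the summed leukocyte markers were higher in Blebb (2439 to 2826) and in Y27 (2360 to 2767) than in DMSO (1719 to 1938); their part in the Cd44 values was not tested.

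**Figure D2:**
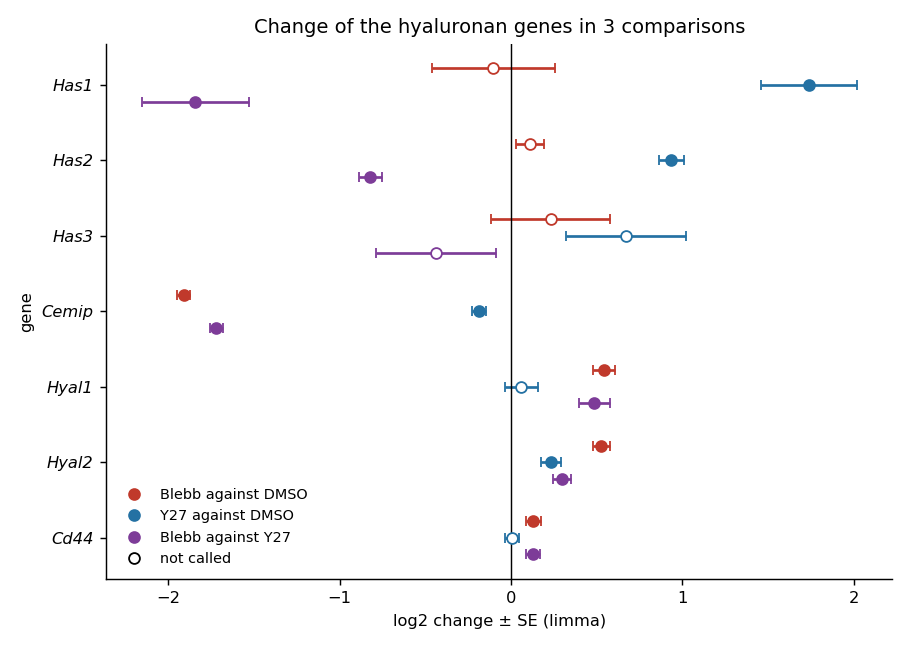
The log2 change (x axis) with its SE from limma for the 7 genes in Blebb against DMSO, Y27 against DMSO and Blebb against Y27; open points were not called at an adjusted p under 0.05. Cemip stood at -1.91 with blebbistatin and -0.19 with Y27632, and Has1 at -0.10 and 1.74.

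The authors' deposited table gave log2 changes of -1.91 for Cemip, 0.54 for Hyal1 and 0.53 for Hyal2 in Blebb against DMSO. In Y27 against DMSO the authors' deposited table gave 1.75 for Has1 and 0.94 for Has2. These come from the same reads and are no second measurement.

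The genes whose pattern over the 9 libraries was most like that of a member were named by Pearson's r of log2 values among 11445 genes with a mean of at least 100. For Cemip they were Arhgap20, Slc12a4 and Rnd3 (r = 0.999, 0.998 and 0.998). For Has2 they were Gxylt2, Etnk1 and Plpp3 (0.992, 0.991 and 0.989). Hyal1 was followed by Hps1, Unc13b and Wdr62 (0.973, 0.971 and 0.970), Hyal2 by Cdk4, Zdhhc14 and Ppfibp2 (0.992, 0.991 and 0.988), and Cd44 by Tmem41a, Tmem65 and Gm30134 (0.964, 0.953 and 0.946). All points share libraries and scaling, and with 3 groups a high r mostly describes the order of the group means. Has1 and Has3 were too low for this.

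Of 46 further genes in 5 hyaluronan lists, 34 passed the filter on low counts in each comparison with DMSO. These lists, like the members, were drawn up with earlier results known, so nothing is read from their counts. The adjusted p-values given for single list genes are a description and do not test a list. Of the 7 genes that supply the nucleotide sugars, 6 fell with blebbistatin and none rose, where 26.9% of all genes were lower, and the list's median log2 change was -0.37 against 0.00 over all genes tested. Uap1, which makes UDP-N-acetylglucosamine, fell by 0.52 (limma, adjusted p = 1.34e-06). Gnpnat1 fell by 0.48, Gfpt1, the entry enzyme of the hexosamine pathway, by 0.40, Pgm3 by 0.37, Ugdh, which makes UDP-glucuronic acid, by 0.29 and Ugp2 by 0.16, a call lost when libraries were scaled by total counts (-0.08). Gfpt2, the other entry enzyme, stood at -0.14 and was not called. With Y27632 the list moved less and in both directions, with a median of 0.04 against 0.00 over all genes. There Gfpt2 rose by 0.46 (limma, adjusted p = 0.000187), Uap1 rose by 0.35 and Ugp2 fell by 0.29. The other 4 were not called, where 35.9% of all genes were. Compared directly, 6 of the 7 were lower in Blebb than in Y27 (26.8% of all genes were) and Ugp2 was higher (25.5% were). The largest difference was -0.86 ± 0.053 for Uap1 (limma, adjusted p = 7.96e-09), which had 1419 to 1518 normalised counts in Blebb, 2054 to 2240 in DMSO and 2468 to 2855 in Y27, with no overlap.

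Of 15 listed genes for matrix proteins that bind hyaluronan, 8 passed the filter. With blebbistatin 2 fell and none rose (median -0.03), where 53.0% of all genes were called. With Y27632 1 rose and 1 fell (median 0.08), where 35.9% were called. Between the inhibitors only Bcan was called, at -1.16, where 52.3% of all genes were called. Vcan, the large proteoglycan versican, fell by 0.35 (limma, adjusted p = 1.34e-05), from 13055 to 14550 normalised counts in DMSO to 10493 to 11036 in Blebb. With Y27632 Vcan fell by 0.31, to 10874 to 11219, and Itih5, an inter-alpha-trypsin inhibitor heavy chain, rose by 0.21, a call lost without DMSO replicate 2 or 3 (0.21 and 0.14) or Y27 replicate 2 or 3 (0.20 and 0.19). Bcan, brevican, fell by 0.95 with blebbistatin from low counts of 32.7 to 53.4. Hapln1, Hapln3, Hapln4 and Itih2 were not called in any comparison. Tnfaip6, which transfers heavy chains onto hyaluronan, had 29.6 to 56.3 normalised counts in the 9 libraries and was not called. Acan, Ncan, Hapln2, Itih1, Itih3, Itih4 and Ambp were below the filter.

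Of 7 other hyaluronan receptors listed, 6 were tested. With blebbistatin 5 rose and 1 fell, where 26.1% of all genes were higher and 26.9% lower, with a median of 0.40 against 0.00 over all genes tested. Between the inhibitors 3 were higher in Blebb and 1, Hmmr, was lower (-0.29), where 25.5% of all genes were higher and 26.8% lower. The Hmmr call was lost without Blebb replicate 1 or 2 (-0.23 and -0.21), without Y27 replicate 2 (-0.22) or under total count scaling (-0.21). Tlr2, an innate immune receptor that responds to hyaluronan fragments, rose by 0.85 (limma, adjusted p = 1.60e-07), from 702 to 722 normalised counts in DMSO to 1164 to 1375 in Blebb. Layn, the C-type lectin layilin, rose by 0.46 and Tlr4 by 0.34, each above all DMSO libraries. Stab1 rose by 0.33, a call lost without DMSO replicate 2 (0.28) or Blebb replicate 1 or 2 (0.30 and 0.28). Stab2, at 6.1 to 22.3 normalised counts, rose by 1.0, a call lost without DMSO replicate 3 (0.71) or Blebb replicate 2 or 3 (0.96 and 0.94), and with DESeq2 (1.02). Hmmr, a receptor that is also a mitotic spindle protein, fell by 0.41. With Y27632 the list's median was 0.12 and only Tlr2 was called, at 0.16, where 35.9% of all genes were called. The Tlr2 call was lost without any 1 of the DMSO libraries (0.15 to 0.17) or without Y27 replicate 2 or 3 (0.12 and 0.16). It was also lost with DESeq2 (0.16) and with the 9 libraries fitted together (0.16). Tlr2, Tlr4 and Stab1 are also leukocyte genes, and the leukocyte marker sums given above were higher in both inhibitor groups; their part was not tested. Lyve1 was below the filter.

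Among the other breakdown genes, Tmem2, a cell-surface hyaluronidase related to Cemip, fell with blebbistatin as Cemip did, by 0.75 ± 0.055 (limma, adjusted p = 2.05e-07). It had 958 to 1072 normalised counts in DMSO, 589 to 610 in Blebb and 868 to 1046 in Y27, where its log2 change of -0.08 was not called. Of the 4 tested, 2 rose and 1 fell with blebbistatin (median 0.37), where 53.0% of all genes were called, and 2 rose with Y27632 (median 0.24), where 35.9% were. The lysosomal glycosidases Hexa and Gusb rose by 0.61 and 0.35 with blebbistatin, and by 0.25 and 0.23 with Y27632. For these 2 genes every Blebb library lay above every Y27 library, and every Y27 library above every DMSO library. Leukocytes are rich in these enzymes, and the part of the higher leukocyte marker sums in both inhibitor groups was not tested. Hyal3 was not called, and Hyal4, Hyal5, Hyal6 and Spam1 had 0 reads in all 9 libraries.

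Of 9 genes that link Cd44 to the cytoskeleton or shed it, 5 rose and 3 fell with blebbistatin, where 26.1% of all genes tested were higher and 26.9% lower. With Y27632 4 rose and 2 fell, where 18.1% of all genes were higher and 17.8% lower. The medians were 0.13 and -0.02, and nothing particular to the list was tested. Between the inhibitors 4 were higher in Blebb and 3 lower, where 25.5% of all genes were higher and 26.8% lower. Mmp14, a membrane metalloproteinase that can cleave Cd44, rose most, by 1.18 ± 0.031 with blebbistatin (limma, adjusted p = 3.09e-11). It went from 23069 to 23927 normalised counts in DMSO to 52733 to 54912 in Blebb, and to 28836 to 30354 in Y27 (log2 change 0.31). Adam17, another sheddase, rose by 0.68 and 0.23, and Adam10 fell by 0.17 with blebbistatin, a call lost under total count scaling (-0.09). Ezr, the linker ezrin, fell by 0.49 with blebbistatin and rose by 0.20 with Y27632, and Ank3 rose by 0.22 and fell by 0.38. Between Blebb and Y27 themselves, Ezr differed by -0.68 and Ank3 by 0.60 (limma, adjusted p = 3.36e-09 and 5.37e-07). Rdx, radixin, fell with both, by 0.41 and 0.18, and Msn, moesin, was called in neither. Mmp9, a sheddase, rose by 0.19 and 0.18, and Nf2, the tumour suppressor merlin, rose by 0.13 with blebbistatin. Of the genes in the 5 lists, Mmp14 alone met the size rule for naming, and the others were named after their values were seen to describe the lists.

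**Figure D3:**
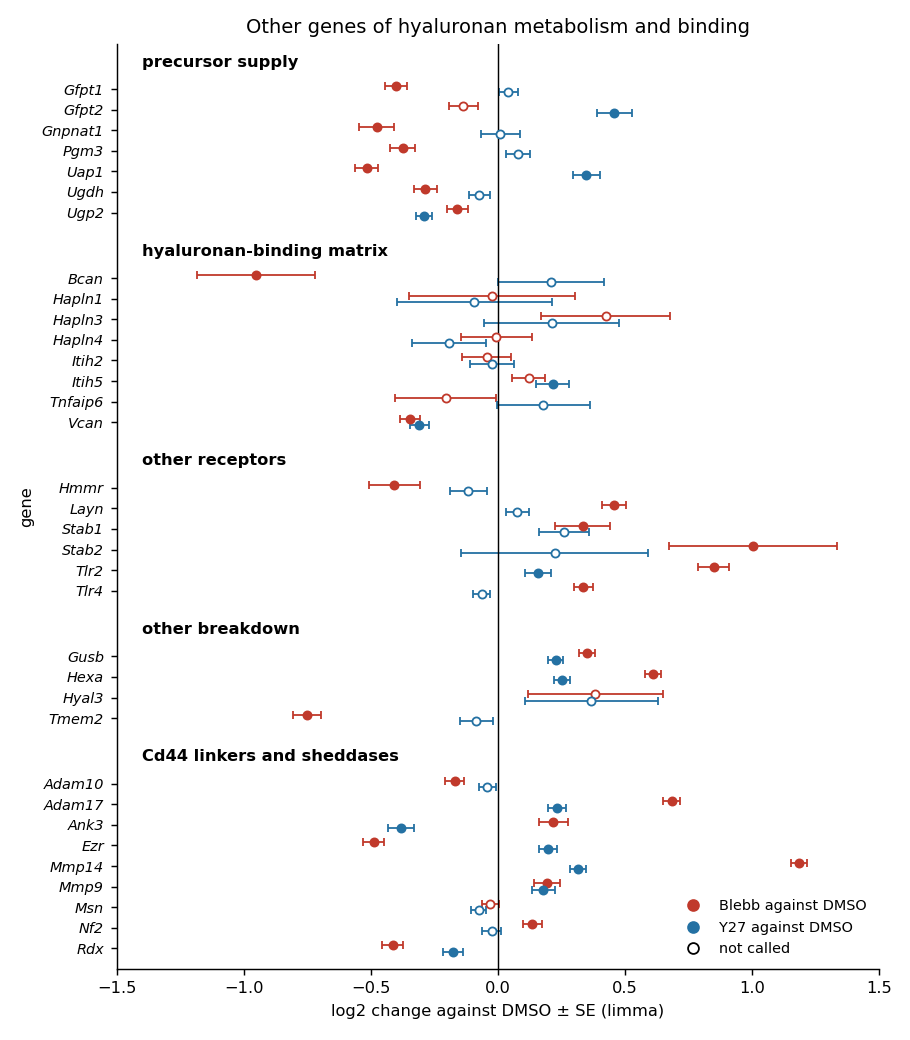
The log2 change against DMSO (x axis) with its SE for the tested genes of 5 lists, in Blebb (red) and Y27 (blue); open points were not called. In the precursor list 6 of 7 genes fell with blebbistatin, where 26.9% of all genes were lower. Tmem2 stood at -0.75 and Mmp14 at 1.18 in Blebb.

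The chromatin lists give, for each site that passed the authors' thresholds, 2 group means and a log2 fold without values per library, so they carry no replicate spread here. All listed folds were at least 1 in size with an FDR of at most 0.05, so a site not listed is not shown to be unchanged. Each site is assigned to a gene by the authors' annotation, with its distance to that gene's start (negative values lie upstream), and coordinates are those of mm10, the build in the submitters' processing notes. In the ATAC list for Blebb against DMSO 1 of 970 sites was annotated to a member, lower in Blebb as were 98.2% of the sites listed. The Y27 list of 207 sites held none. In nodox_blebb against nodox_noblebb 2 of 1231 sites were, both lower as were 99.0% of the list. In dox_blebb against dox_noblebb 8 of 6346 were, all lower as were 99.8%, and in dox_noblebb against nodox_noblebb 4 of 7613 were, all higher as were 95.8%. The directions at the members were therefore those of nearly every site listed. The reference column of that last list is headed as nodox_blebb, while the sample labels assign the table to nodox_noblebb and dox_noblebb, so the reference group is given here by the labels.

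An intergenic place upstream of Has2 was lower with blebbistatin in 3 of the lists. In the ATAC list, chr15:56844668-56844890, at -150233 bp, had group means of 4.29 in Blebb and 6.02 in DMSO, a log2 fold of -1.74 (the authors' FDR 0.00403). In nodox_blebb, chr15:56844679-56844890 had 4.89 against 6.11 in nodox_noblebb, a log2 fold of -1.22 (the authors' FDR 0.0065). In dox_blebb, chr15:56844582-56844905 had 5.73 against 7.09 in dox_noblebb, a log2 fold of -1.36 (the authors' FDR 4.98e-08). The shorter site lay wholly inside the longer in each pair of lists. In the ATAC list this site carried a match to a motif that the authors' table names as TEAD by best guess, shown because TEAD proteins bind DNA for Yap and Taz, written as in that table with the reverse complement of the AGGAAT core in capitals:
Has2 upstream site: caaaATTCCT
Such a match was recorded for 603 of the 970 sites in that list (62.2%). The Has2 match does not hold GGAATG, the core searched in the promoters, on either strand, so the 2 marked cores differ. Beside these lower sites, Has2 mRNA in Blebb against DMSO had a log2 change of 0.11 and was not called, and in Y27, where Has2 rose by 0.94, no site at Has2 was listed.

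Another Has2 site, chr15:56721393-56721625 at -26963 bp, was lower in dox_blebb (4.39 against 5.84, log2 fold -1.45). A further one, chr15:56858756-56858969 at -164317 bp, was higher in dox_noblebb than in nodox_noblebb (5.84 against 4.40, log2 fold 1.43). Upstream of Cemip 1 place was lower with blebbistatin both without and with doxycycline. At chr7:84090921-84091037, -4474 bp from the start, nodox_blebb had 4.73 and nodox_noblebb 5.77, a log2 fold of -1.04 whose FDR of 0.0393 lay close to the limit. At chr7:84090889-84091101, which contains it, dox_blebb had 5.51 and dox_noblebb 6.67, a log2 fold of -1.15. Cemip mRNA, measured in other libraries, fell by 1.91 in Blebb against DMSO, and the ATAC list for that pair held no site at Cemip.

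Within Has1 a site in intron 4 of 4, chr17:17845543-17845787, was lower in dox_blebb (6.04 against 7.19, log2 fold -1.16). Cd44 had 7 of the 12 member sites in the lists with doxycycline, all intergenic and between -64176 and -33275 bp. Lower in dox_blebb than in dox_noblebb were chr2:102965772-102965910 (-1.07), chr2:102957112-102957249 (-1.51), chr2:102956509-102956794 (-1.67) and chr2:102934774-102935105 (-1.25), with log2 folds in brackets. Higher in dox_noblebb than in nodox_noblebb were chr2:102957112-102957249 (1.49), chr2:102956942-102957080 (1.0) and chr2:102945131-102945629 (1.09). The interval chr2:102957112-102957249 is in both lists: its group mean was 4.01 in nodox_noblebb, 5.49 in dox_noblebb and 3.98 in dox_blebb, and both folds use the same dox_noblebb libraries. No RNA library was treated with doxycycline. Hyal1, Hyal2 and Has3 had no site in any list. Tmem2, under its newer symbol Cemip2, had 4 sites that were lower in dox_blebb (log2 folds of -1.46 to -1.04) and 1 that was higher in dox_noblebb (1.12).

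**Figure D4:**
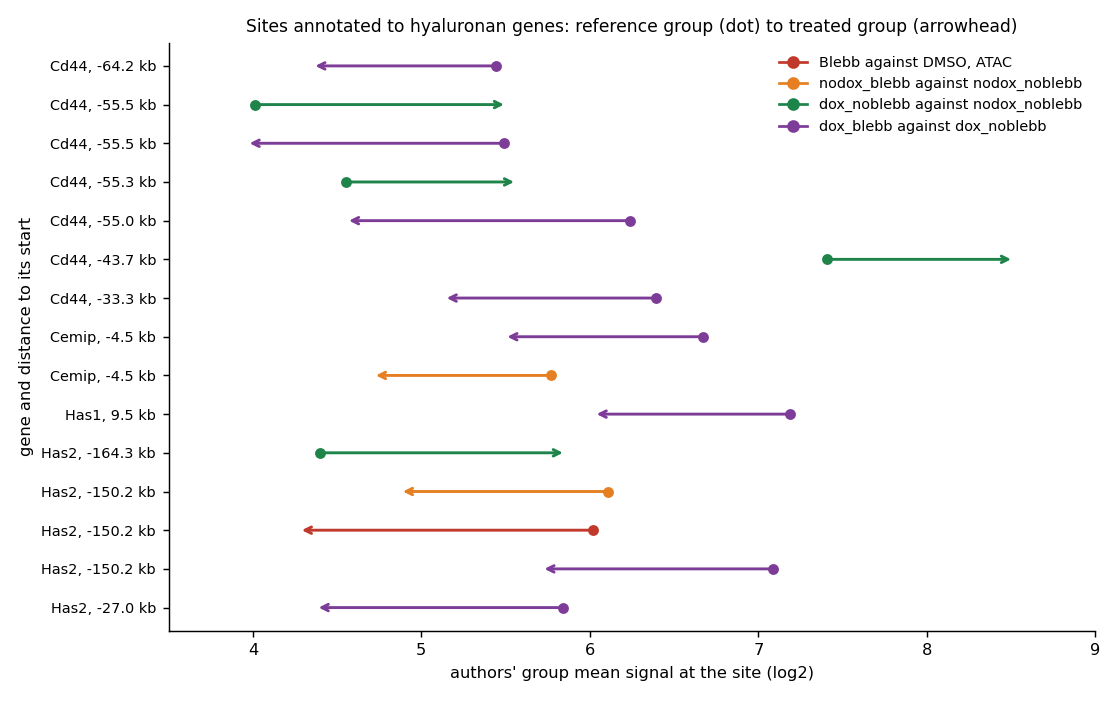
The 15 sites annotated to hyaluronan genes, labelled by gene and distance to its start in kb; dots give the authors' log2 mean signal in the reference group and arrowheads that in the treated group, coloured by list. The Has2 site near -150 kb is lower with blebbistatin in 3 lists, and the Cd44 site at -55.5 kb goes from 4.01 to 5.49 with doxycycline and from 5.49 to 3.98 with added blebbistatin.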

How the data were processed

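Gene and site tables for primary mouse tail-tendon fibroblasts were used as the authors deposited them. The RNA values are a signal, gene counts that the authors had divided by size factors, per the file headers and the values; HISAT2, featureCounts and DESeq2 and the build mm10 are named in the submitters' processing notes, without versions. Whole reads were recovered from that deposited signal with 100.0% of values whole within 0.01 reads, and the 2 tables held the same DMSO reads. The 5 site lists hold the authors' log2 group means and log2 folds, p-values or FDR and distances to gene starts, per the file headers; Bowtie2, MACS2, DiffBind and HOMER are named in the submitters' processing notes. No RNA column of values per library lacked a matching label. In the list of dox_blebb against dox_noblebb the reference column is headed dox_noblebb_vs_dox_blebb and was taken as dox_noblebb.

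Members and lists were chosen with earlier results of these data known, and 1 gene of the lists is not reported here. The rule for named genes gave the 7 members, called list genes whose log2 change reached 1 in size with a mean of 100 or more, and the 3 genes most like each member. Other list genes were named after their values were seen. Tests used limma 3.58.1 with a trend (R 4.3.3) on log2(normalised count + 1), genes with a mean of at least 10 and adjusted p under 0.05. Each DMSO comparison was fitted in its own table of 6 libraries. Blebb against Y27 was fitted on the 9 libraries scaled together by median-of-ratios size factors. Other settings were edgeR 4.0.16, DESeq2 1.42.0, total count scaling, other pseudocounts and filters, a replicate block and leaving out each library. The fit was tested on simulated data. Replicate pairs differed by 2.52 to 7.49 times counting noise (chi-square per degree of freedom). Promoters are from RefSeq (GRCm38.p6), matched by symbol for 5 of 7 members: Cd44, Cemip, Has1, Hyal1 and Hyal2. Has2 and Has3 were not among them and were not searched.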

Additional observations from a re-analysis of the deposited data

How the results depend on the processing

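The numbers of members called, 4, 4 and 6 in Blebb against DMSO, Y27 against DMSO and Blebb against Y27, ranged from 3 to 4, 4 to 4 and 5 to 6 when 1 library was left out. Over other settings they were 4, 3 to 4 and 5 to 6. A filter at a mean of 50 dropped Has1 and Has3, which is why these counts were lower there. Directions reversed only for changes that were not called: left-out libraries gave -0.40 to 0.12 for Has1 and -0.14 to 0.48 for Has3 in Blebb against DMSO, and -0.060 to 0.13 for Hyal1 and -0.020 to 0.058 for Cd44 in Y27 against DMSO. Replicate numbers showed no clear pairing: correlations were -0.21 to 0.09 for same-numbered libraries and -0.25 to 0.18 for differently numbered ones. With 3 libraries per group this cannot show that the replicates were unpaired. With a replicate block the members called remained 4, 4 and 6 in number, and 7604, 4633 and 7634 genes were called in all, against 7894, 5328 and 7802 without it. The calls among the other hyaluronan genes numbered 25, 14 and 22 with and without it. In the nodox_blebb list 1 member site, at Has2, had an FDR of at most 0.01, against 2 at the authors' limit. All 5 overlaps between lists held when 50% of the shorter site had to be covered. DESeq2 called 6838 genes in Blebb against DMSO. Has1 and Has3 rest on 8 to 76 reads per library, which limits their precision.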
